A study of Homo sapiens with 18 samples.

Results

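The small leucine-rich proteoglycans (SLRPs) are described here in human induced pluripotent stem cells (hiPSCs) with and without PCGF6. The 10 genes are LUM (lumican), DCN (decorin), BGN (biglycan), FMOD (fibromodulin), KERA (keratocan), PRELP (prolargin), OGN (osteoglycin), ASPN (asporin), EPYC (epiphycan) and OMD (osteomodulin), out of 57133 genes in the count table. LUM was chosen for its counts in PCGF6-KO libraries and their absence in WT libraries, so its values against WT are a description with no test. The other 9 genes were chosen by family membership and not by their values. RNA-seq counts were analysed for 6 libraries of the hiPSC line PGP1, with 2 libraries of WT cells, 2 of PCGF6-KO clone 1 and 2 of PCGF6-KO clone 2. PCGF6 had been knocked out by CRISPR/Cas9 with a pair of guide RNAs in exon 1, all cells were kept in mTeSR1 medium on Matrigel, and each PCGF6-KO group was derived from 1 single-cell clone, so within a group the knockout and the clone cannot be told apart. The labels do not say whether the libraries of a group came from separate cultures, so p-values measure the spread between these libraries.

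SLRPs are secreted proteins with a core of leucine-rich repeats, which binds collagen fibrils and influences how thick they grow and how closely they pack. Several members carry sulfated sugar chains: chondroitin or dermatan sulfate on decorin and biglycan, and keratan sulfate on lumican, keratocan and fibromodulin. Lumican and keratocan are best known from the transparent stroma of the cornea, and decorin and biglycan from connective tissue, where they also bind TGF-beta and other signalling proteins. PCGF6 is a subunit of a variant Polycomb complex that represses genes.

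The libraries summed to between 15877396 and 18918609 counts. PCGF6 itself, counted over the whole gene, had 268 and 300 counts in the WT libraries, 99 and 103 in those of clone 1, and 187 and 159 in those of clone 2. Against WT, the log2 fold change was -1.67 ± 0.14 (SE) for clone 1 (edgeR, adjusted p = 1.03e-10) and -0.77 ± 0.13 for clone 2 (adjusted p = 1.21e-05), so the gene was lower in both. Only exon 1 was targeted, so counts over the rest of the gene do not by themselves check the deletion. All 8 pluripotency markers examined were well counted in every library (POU5F1 from 22722 to 31072 counts, NANOG from 1941 to 3433). None of the 8 was called between genotypes. SOX2 was not among the markers examined, so these results do not cover it. The paper reports that SOX2 expression was lower after loss of PCGF6. For 5 of the 8 the adjusted p was under 0.05 with a change smaller than 0.6 on the log2 scale, NANOG (0.40) and PODXL (0.44) being higher in PCGF6-KO and LIN28A (-0.29), DPPA4 (-0.44) and L1TD1 (-0.40) lower. Replicates of each group differed by more than counting error, with a chi-square per degree of freedom of 2.4 (WT), 4.5 (clone 1) and 3.2 (clone 2), so each library was kept as a sample of its own.

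Of the 10 SLRP genes, LUM and BGN made up most of the signal, FMOD and PRELP were counted at lower levels in every library, DCN was counted at a low level in the PCGF6-KO libraries, and OGN, KERA, ASPN, EPYC and OMD had at most 4 counts in any library. The genes lie in 3 groups and 1 single position on GRCh38 (GENCODE 44). EPYC, KERA, LUM and DCN lie in this order on chromosome 12 between positions 90963682 and 91183217, a span of 219.5 kb. OGN, OMD and ASPN lie within 99.2 kb on chromosome 9, and FMOD and PRELP within 150.7 kb on chromosome 1. BGN stands alone on the X chromosome between positions 153494980 and 153509546. LUM, a gene of 8866 bases, is on the minus strand at chr12:91102629-91111494.

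RefSeq windows of 250 bases before the annotated start were matched for 6 of the 10 genes (BGN, FMOD, PRELP, OGN, ASPN and EPYC; GRCh38.p14). They are shown for BGN, FMOD and PRELP, the members counted in all 6 libraries with at least 9 counts, to show how differently they are composed. Each is written in the direction of transcription, 5′ to 3′, with capitals for matches on either strand to GGGCGG (the GC box) or TATAAA (the TATA box).
BGN: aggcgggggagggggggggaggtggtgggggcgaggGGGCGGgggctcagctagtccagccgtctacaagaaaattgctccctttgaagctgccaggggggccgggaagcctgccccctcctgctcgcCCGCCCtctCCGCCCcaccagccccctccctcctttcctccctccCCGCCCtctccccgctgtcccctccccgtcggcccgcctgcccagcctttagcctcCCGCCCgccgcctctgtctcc
FMOD: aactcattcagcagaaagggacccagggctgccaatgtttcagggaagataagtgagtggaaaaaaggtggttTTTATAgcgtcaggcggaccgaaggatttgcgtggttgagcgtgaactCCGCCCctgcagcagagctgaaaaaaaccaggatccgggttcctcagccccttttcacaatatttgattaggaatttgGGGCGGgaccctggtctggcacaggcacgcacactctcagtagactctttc
PRELP: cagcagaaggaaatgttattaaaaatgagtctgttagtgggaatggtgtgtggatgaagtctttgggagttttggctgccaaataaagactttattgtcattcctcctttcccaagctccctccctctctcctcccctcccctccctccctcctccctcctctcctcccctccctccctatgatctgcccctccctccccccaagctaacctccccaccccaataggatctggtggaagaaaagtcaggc
The BGN window (chrX:153494730-153494979, plus strand) had a GC content of 74.0% and 16 CpG dinucleotides, against medians of 58.0% and 11 over all 35116 windows. The FMOD window (chr1:203351123-203351372, minus strand) had 51.6% GC and 9 CpG, and the PRELP window (chr1:203475556-203475805, plus strand) had 52.8% GC and 0 CpG. GGGCGG was found 5 times in the BGN window and 2 times in the FMOD window, and in 42.6% of all windows. TATAAA was found in the FMOD, OGN and EPYC windows and in 10.7% of all windows. The E-box CACGTG, which reads the same on both strands and is bound by MYC, MAX and MGA, was in no window of a member and in 6.34% of all windows. The E2F-type motif GCGGGAA was in no window of a member either, and in 5.52% of all windows. A match or its absence describes the letters in the window and not binding.

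LUM, whose protein spaces collagen fibrils, had 0 counts in both WT libraries. It had 604 and 621 counts in clone 1, and 497 and 427 in clone 2. Every PCGF6-KO library therefore stood apart from every WT library, as the choice of the gene had fixed. Its level was 32.9 ± 1.82 CPM (counts scaled to library size by TMM; SD, n = 2) in clone 1 and 27.0 ± 0.564 in clone 2. Taking 3 counts in each WT library as the limit that a count of 0 allows, the level in PCGF6-KO libraries was at least 165-fold higher (at least 181-fold in clone 1 and 148-fold in clone 2). This limit covers counting error only. In these bulk libraries, more expressing cells and more RNA per cell cannot be told apart.

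**Figure D1:**
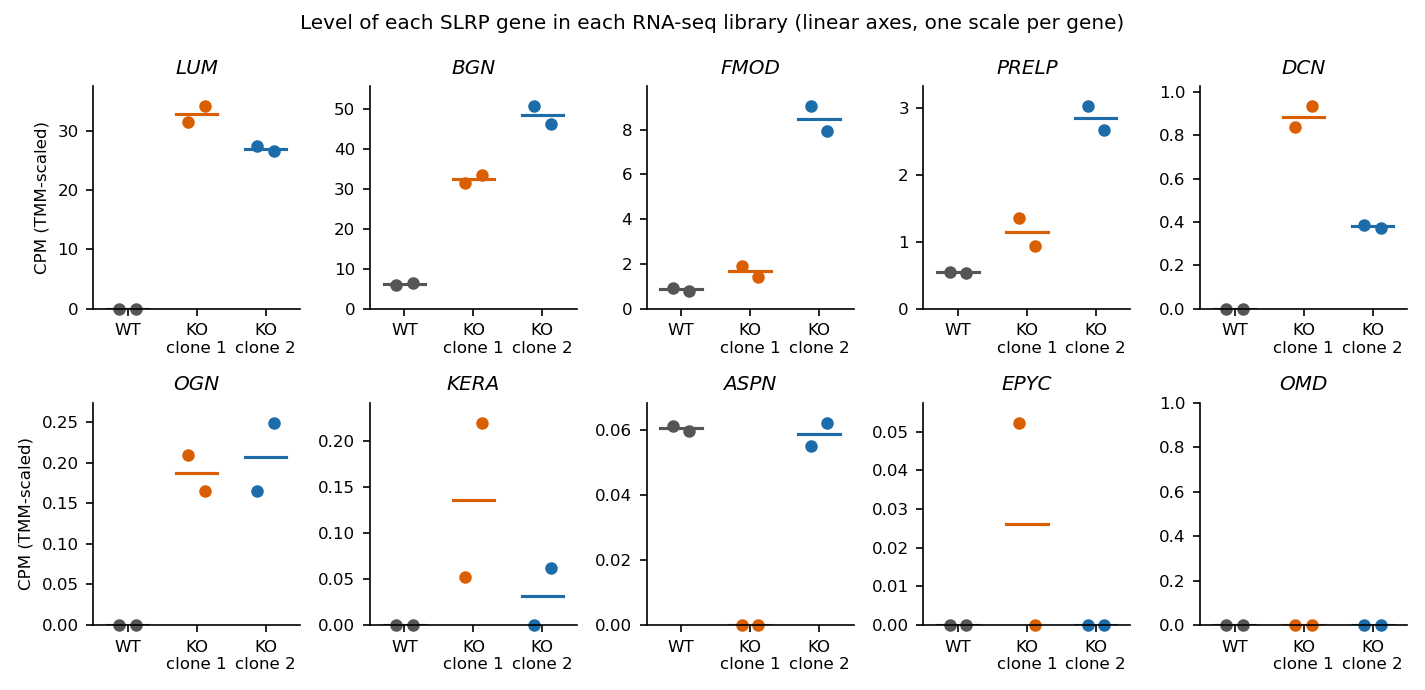
Level of each SLRP gene, one panel per gene, with the group on the x axis and CPM scaled by TMM on a linear y axis that starts at 0 and differs between panels. Points are libraries and lines are means of 2 libraries. LUM lies at 0 in WT and between 26.6 and 34.2 CPM in the 4 PCGF6-KO libraries, while OGN, KERA, ASPN and EPYC are drawn from at most 4 counts and OMD from none.

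LUM was slightly lower in clone 2 than in clone 1 (log2 fold change -0.28 ± 0.10, adjusted p = 0.0396, edgeR quasi-likelihood test). This stayed under the size of 0.6 on the log2 scale that a call needed here, together with an adjusted p under 0.05. In this comparison of the clones, 3.73% of the 17672 genes tested were called higher in clone 2 and 4.14% lower. On the scale per gene length (RPKM), the mean level of LUM was higher than that of 76.2% of the tested genes in clone 1 and 71.9% in clone 2.

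The named rule for likeness picked, among 13862 genes with a mean of at least 1 log2 CPM, those whose centred log2(CPM + 0.5) over the 6 libraries lay closest to LUM. They were GAD1, which makes the neurotransmitter GABA (Euclidean distance 0.35), PPIAP46 (0.526), LINC00458 (0.578), GREB1L (0.591) and WLS, which carries Wnt proteins to the cell surface (0.593). GAD1 had 16 to 26 counts in WT, 2091 to 2206 in clone 1 and 1491 to 1830 in clone 2, so unlike LUM it was not at 0 in WT. PPIAP46 is a pseudogene of PPIA, and its counts are uncertain because reads can be shared with near-identical copies. The choice rested on the pseudocount, since with 0.1 or 2 in place of 0.5 the 5 closest genes shared 0 with these.

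BGN, a class I proteoglycan that carries chondroitin or dermatan sulfate, had the highest level of the 10 members in WT cells and rose in both clones. It had 96 and 105 counts in the WT libraries, 599 and 607 in those of clone 1, and 918 and 739 in those of clone 2. No PCGF6-KO library overlapped a WT library. Mean CPM was 6.09 ± 0.28 for WT, 32.4 ± 1.46 for clone 1 and 48.3 ± 3.23 for clone 2 (SD, n = 2 each). With both clones as 1 group the log2 fold change was 2.72 ± 0.23 (SE; adjusted p = 3.06e-05), a 6.61-fold increase. Taken singly, clone 1 gave 2.41 ± 0.12 (adjusted p = 2.68e-15) and clone 2 gave 2.99 ± 0.11 (adjusted p = 1.16e-17). All 13 alternatives kept the call in each of these comparisons. Over all genes tested, 14.9% were called higher in PCGF6-KO against WT and 8.70% lower, and 16.0% were called higher in clone 1 and 16.9% in clone 2.

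FMOD, a class II member that binds collagen and carries keratan sulfate, had the largest difference between the clones among the 5 tested members. It had 15 and 13 counts in the WT libraries, 36 and 26 in those of clone 1, and 164 and 127 in those of clone 2. The 3 groups did not overlap, and the clone 2 libraries lay far above the clone 1 libraries. Mean CPM was 0.850 ± 0.101 for WT, 1.66 ± 0.32 for clone 1 and 8.48 ± 0.799 for clone 2 (SD, n = 2 each). FMOD rose 9.93-fold in clone 2 (log2 fold change 3.31 ± 0.25, adjusted p = 2.19e-11) and 1.95-fold in clone 1 (0.96 ± 0.33, adjusted p = 0.0196). With the clones as 1 group it passed the threshold narrowly (2.56 ± 0.85, adjusted p = 0.0433). That call was lost without WT replicate 1 (adjusted p = 0.178), without WT replicate 2 (0.204), without clone 2 replicate 1 (0.0721) and without clone 2 replicate 2 (0.0736). The call in clone 1 was lost without WT replicate 2 (0.108), without clone 1 replicate 1 (0.152) and with DESeq2 (0.0916), where the clone 1 libraries held 36 and 26 reads.

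PRELP, which lies 124.0 kb from FMOD and whose protein anchors basement membranes to collagen, had 9 and 9 counts in the WT libraries, 26 and 17 in those of clone 1, and 55 and 43 in those of clone 2. The 3 groups again did not overlap, in the same order as for FMOD. Mean CPM was 0.546 ± 0.00947 for WT, 1.15 ± 0.30 for clone 1 and 2.86 ± 0.25 for clone 2 (SD, n = 2 each). Both WT libraries lay under the limit of 0.577 CPM that the filter on low counts used, so PRELP was tested only because of its PCGF6-KO libraries, and its tests against WT are conditioned on its being higher there. With that condition, PRELP was 5.19-fold higher in clone 2 (log2 fold change 2.38 ± 0.36, adjusted p = 4.44e-06). The value in clone 1 was 1.07 ± 0.42 (adjusted p = 0.0404), with no call without WT replicate 1 (0.125), without WT replicate 2 (0.138), without clone 1 replicate 1 (0.256) or with DESeq2 (0.194). With the clones as 1 group the value was 1.85 ± 0.56 (adjusted p = 0.0287), and the call was lost without WT replicate 1 (0.142), WT replicate 2 (0.148) or clone 2 replicate 2 (0.0529).

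DCN, the relative of biglycan that lies 29.0 kb from LUM, had 0 counts in both WT libraries. It had 16 and 17 counts in clone 1, and 7 and 6 in clone 2. The PCGF6-KO libraries did not overlap WT, and those of clone 1 lay above those of clone 2. Against 3 counts in each WT library, the level was at least 4.87-fold higher in clone 1 and at least 2.09-fold higher in clone 2. DCN passed the filter through its clone 1 libraries alone, so its test in clone 1 against WT is conditioned on its being higher there (edgeR, adjusted p = 2.39e-05). The clone 2 libraries lay under the filter's limit, so passing did not rest on them (adjusted p against WT = 0.00167). Clone 2 against clone 1 is conditioned on high clone 1 values too, and it did not pass the test (log2 fold change -1.20 ± 0.51, adjusted p = 0.106). Mean CPM in clone 1 was 0.886 for DCN, against 32.9 for LUM. Per gene length, DCN reached 0.069 ± 0.00541 RPKM in clone 1, against 10.9 ± 0.604 for LUM. This wider gap comes from the deposited lengths, 12847 bases for DCN and 3008 for LUM.

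The remaining members were at or near 0. OGN was at 0 in both WT libraries and had 3 or 4 counts in each PCGF6-KO library, at or just over the limit of 3 counts. KERA, the corneal keratan sulfate proteoglycan next to LUM, was at 0 in both WT libraries, with 1 and 4 counts in the clone 1 libraries and 0 and 1 in those of clone 2. ASPN had 1 count in each WT library, 0 in clone 1 and 1 in each clone 2 library. EPYC, which is known from growth plate cartilage, had 1 count in 1 clone 1 library and 0 elsewhere, and OMD had 0 counts in all 6 libraries. At this depth these 5 genes had too few counts to pass the filter, so they were not tested in the main fit and no fold is given for them.

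Of the 9 members other than LUM, 4 passed the filter on low counts. DCN and PRELP passed only through PCGF6-KO libraries, so no count of calls over these members is read against the 14.9% of all genes. The WT libraries of BGN and FMOD were above the filter's limit.

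**Figure D2:**
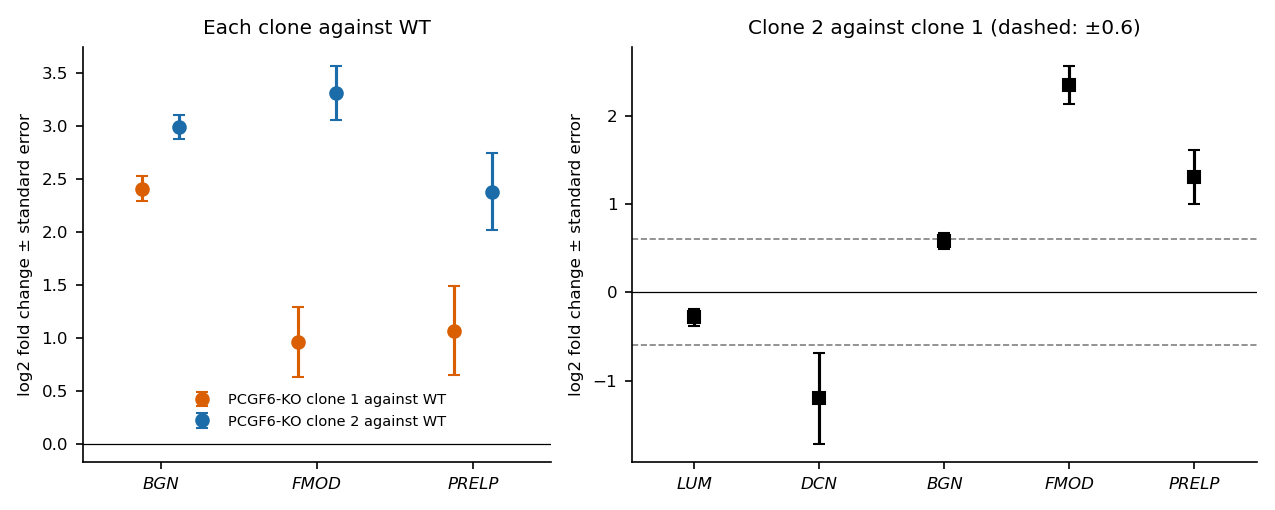
Left, log2 fold change of BGN, FMOD and PRELP in each clone against WT; right, log2 fold change of the 5 tested members in clone 2 against clone 1. PRELP against WT was tested only through its PCGF6-KO libraries, and DCN between the clones only through its clone 1 libraries. Symbols are edgeR estimates, bars are approximate standard errors derived from the F statistic of the test, and dashed lines mark the size of 0.6 needed for a call. FMOD (2.35) and PRELP (1.31) lie above the upper line between the clones, BGN (0.58) and LUM (-0.28) lie between the lines, and DCN (-1.20) has a wide error.

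The clones were compared directly to see how far the family differed between the lines. FMOD was 5.10-fold higher in clone 2 than in clone 1 (log2 fold change 2.35 ± 0.22, adjusted p = 9.82e-09), and all 13 alternatives kept this call, with values from 2.16 to 2.57. PRELP was 2.48-fold higher (1.31 ± 0.31, adjusted p = 0.00288), a call kept by 11 of 12 alternatives and lost with DESeq2 (adjusted p = 0.08). BGN was 1.5-fold higher (0.58 ± 0.09, adjusted p = 3.24e-05), just under the size needed, which it passed without clone 1 replicate 2 (0.62) or without clone 2 replicate 2 (0.65). LUM and DCN, the neighbours on chromosome 12, had lower values in clone 2, with no call. For DCN this comparison is conditioned on high clone 1 values, through which alone it passed the filter. PCGF6 counts differed between the clones in the same comparison (0.90 ± 0.15 higher in clone 2, adjusted p = 5.44e-05), and the part of this in the members' values was not tested.

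Levels of different members were compared per gene length. The deposited lengths ran from 1805 bases for EPYC to 12847 for DCN, which places DCN lower in these orders than its CPM does. In clone 1, DCN lay at 0.886 CPM, above OGN (0.187) and KERA (0.136). In clone 2, DCN lay at 0.38 CPM, above OGN (0.207) and KERA (0.0312). In WT the order of mean RPKM was BGN (2.48), FMOD (0.250), PRELP (0.0950) and ASPN (0.0246), with the others at 0, and the ranges of the first 3 did not overlap. In clone 1 the order was BGN (13.2), LUM (10.9), FMOD (0.487), PRELP (0.200), DCN (0.0690), KERA (0.0630), OGN (0.0563) and EPYC (0.0145), with ASPN and OMD at 0. The lowest BGN library (12.8) lay above the highest LUM library (11.4), whereas KERA (0.0242 and 0.102) spanned both DCN and OGN. In clone 2 the order was BGN (19.7), LUM (8.98), FMOD (2.49), PRELP (0.497), OGN (0.0624), DCN (0.0296), ASPN (0.0238) and KERA, with EPYC and OMD at 0. The ranges of the first 6 did not overlap there, and KERA (0 and 0.0288) spanned ASPN. The ratio of LUM to BGN on this scale was 0.822 and 0.834 in the clone 1 libraries and 0.442 and 0.471 in the clone 2 libraries. For FMOD to PRELP the ratio was similar in WT libraries (2.82 and 2.44) and clone 1 libraries (2.34 and 2.58), and 5.04 and 4.99 in those of clone 2.

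The make-up of the summed level differed between the groups. BGN alone held 86.0% and 88.1% of the summed RPKM of the 10 genes in the WT libraries. LUM and BGN together held 96.0% and 96.9% in clone 1, and 90.0% and 90.3% in clone 2. LUM held 43.3% and 44.1% in clone 1 but 27.6% and 28.9% in clone 2, where FMOD held 8.05% and 7.61%. The summed level was 7.43 and 7.67 CPM in WT libraries, 67.3 and 71.2 CPM for clone 1 and 90.7 and 84.0 CPM for clone 2, mostly LUM, for which the set was chosen, and BGN.

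**Figure D3:**
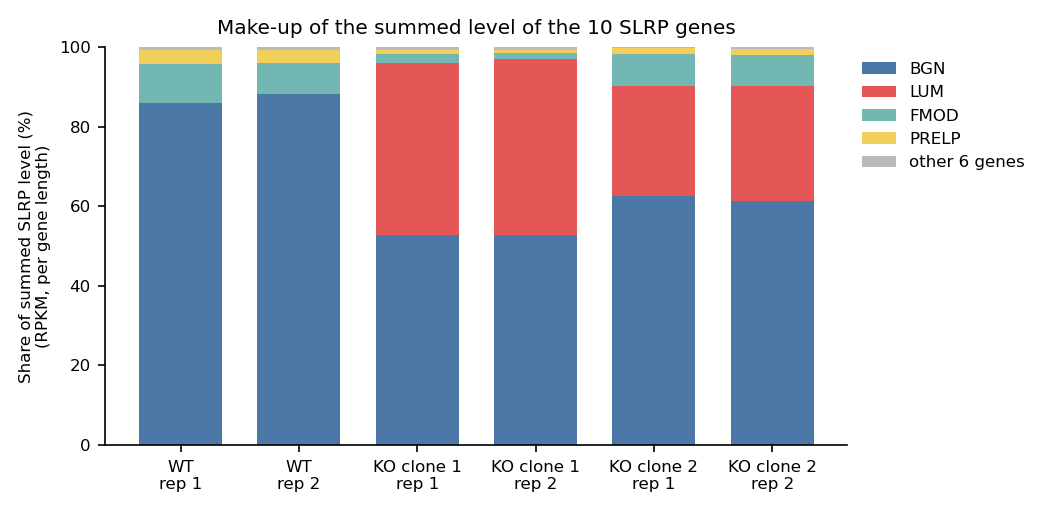
Share of the summed SLRP level in each library, in percent of RPKM, with one bar per library. BGN holds 86.0% and 88.1% in WT, LUM is absent there, and LUM takes 43.3% and 44.1% in clone 1 and 27.6% and 28.9% in clone 2.

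The genes around the members were examined to see whether members moved with their neighbours. On chromosome 12, counts were seen at LUM and DCN, while EPYC and KERA on the other side of LUM stayed at no more than 4 counts and CCER1, next to EPYC, had 0 in every library. BTG1, the next coding gene beyond DCN at 957.1 kb, had 0.28 ± 0.17 on the log2 scale, with no call (adjusted p = 0.24). On chromosome 1, BTG2, an antiproliferative gene 31.0 kb from FMOD, rose (17 and 14 counts in the WT libraries, 109 in each clone 1 library, 118 and 90 in those of clone 2; log2 fold change 2.65 ± 0.22, adjusted p = 2.76e-05). BTG2 did not share the difference between the clones seen at FMOD (0.06 ± 0.18 for clone 2 against clone 1, adjusted p = 0.876; the difference between the genes was not tested). On the other side, OPTC (opticin), itself an SLRP gene and 2.8 kb from PRELP, fell: it had 22 and 33 counts in the WT libraries, 6 and 10 in those of clone 1, and 11 and 1 in those of clone 2 (-2.08 ± 0.52, adjusted p = 0.013). The OPTC call was lost without WT replicate 2 (adjusted p = 0.138).

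OGN, OMD and ASPN lie within CENPP, a centromere protein gene on the opposite strand. The log2 fold change of CENPP was 0.44 ± 0.15 (adjusted p = 0.0451), under the size needed for a call. NOL8, on the OGN side of the group, had 0.31 ± 0.12 (adjusted p = 0.0708), and ECM2, on the ASPN side, had at most 4 counts. BGN overlaps HAUS7 on the opposite strand, whose log2 fold change was -0.45 (adjusted p = 0.466), and no exon bases are shared between a member and a gene it overlaps.

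Next, 7 lists of genes that work with SLRPs were described by their calls in PCGF6-KO against WT. A gene without a call missed the adjusted p of 0.05 or the size of 0.6. The background is 14.9% called higher and 8.70% called lower, and the median log2 fold change over all genes was 0. COL3A1, TLR4, ERBB4 and LOXL4 passed the filter on low counts only through PCGF6-KO libraries, so their tests are conditioned on their being higher there. OPTC passed it only with its WT libraries, so its test is conditioned on its being lower in PCGF6-KO. The list counts include these calls. Of the 8 other SLRP genes, 4 were tested: OPTC fell, 3 were not called, and the median log2 fold change was -0.26. TSKU (tsukushi), the most counted of them, had 960 to 1059 counts in WT and 1392 to 1742 in the PCGF6-KO libraries, a log2 fold change of 0.50 with an adjusted p of 0.00667, under the size needed for a call.

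Of the 14 collagens that SLRPs bind, all were tested, 11 rose, 1 fell and 2 did not pass the test, with a median log2 fold change of 2.37. COL3A1, the chain of type III collagen, had 6 and 1 counts in the WT libraries, 4601 and 4769 in those of clone 1, and 7977 and 6886 in those of clone 2 (log2 fold change 10.61 ± 0.56, adjusted p = 1.92e-06). The fibril chains COL5A1 (3.60) and COL2A1 (2.52) and the microfibril chain COL6A3 (3.39) rose too. COL11A2 fell by 1.37 on the log2 scale, from 99 and 88 counts in WT to between 36 and 43. In clone 2 against clone 1, 4 of the 14 were called higher and 1 lower, beside 3.73% and 4.14% of all genes tested.

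Enzymes that build the sugar chains were split into a chondroitin or dermatan sulfate list and a keratan sulfate list. The first had calls in both directions and the second only higher ones. Over all genes tested, 14.9% were called higher and 8.70% lower. Of 23 linker and chondroitin or dermatan sulfate enzymes tested, 5 rose, 2 fell and 16 were not called (median log2 fold change 0.23), of which 6 had an adjusted p under 0.05 and missed only the size. CSGALNACT1, which starts the chondroitin chain, rose from 13 and 11 counts in WT to between 51 and 62 (2.1 ± 0.26), and DSEL (2.02), a dermatan sulfate epimerase, and CHST15 (1.66), a sulfotransferase, rose as well. XYLT1, which attaches the first sugar to the core protein, fell by 0.80 on the log2 scale (adjusted p = 0.000788). Of 11 keratan sulfate enzymes tested out of 12, 4 rose and 7 were not called, 2 of them for size alone (median 0.33). Those that rose were CHST2 (2.68) and B3GNT7 (1.47), followed by ST3GAL1 (1.12) and B3GNT2 (0.90). CHST2, a sulfotransferase, had 438 and 448 counts in the WT libraries, 2143 and 2050 in those of clone 1, and 4384 and 3600 in those of clone 2. The ST3GAL1 call was lost without WT replicate 1 (adjusted p = 0.136) or WT replicate 2 (0.0886).

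Of the 24 large and cell-surface proteoglycans tested out of 25, 5 rose, 4 fell and 15 were not called, 7 of them for size alone, with a median log2 fold change of -0.09. The link protein gene HAPLN1 rose by 5.40 ± 0.43 (80 and 78 counts in WT, 2466 to 4935 in PCGF6-KO libraries), while HAPLN3, another link protein gene, fell by 2.37 on the log2 scale. ACAN (aggrecan) rose by 1.63, and BCAN (brevican) fell by 1.63 on the log2 scale.

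Of 17 growth factors and receptors that SLRPs bind, all tested, 8 rose, 0 were called lower and 9 were not called, 4 of them for size alone (median log2 fold change 0.56). Of these 4, LRP1 had a lower value in PCGF6-KO (-0.26, adjusted p = 0.00648). TLR4, an innate immune receptor to which biglycan binds, had 4 and 5 counts in the WT libraries, 62 and 73 in those of clone 1, and 223 and 226 in those of clone 2 (4.90 ± 0.90, adjusted p = 0.0027). The receptor gene ERBB4 (4.28) and the ligand genes TGFB2 (4.03) and BMP4 (3.89) followed. Of 16 tested out of 18 genes for proteases that process SLRPs or collagen and for fibril maturation, 10 rose, 1 fell and 5 did not pass (median 1.03). The lysyl oxidases LOXL4 (3.95) and LOX (2.46), which cross-link collagen, rose, as did the protease genes ADAMTS5 (2.01) and BMP1 (1.83), the latter encoding an enzyme that cleaves the biglycan propeptide. The ADAMTS5 call was lost without WT replicate 1 (adjusted p = 0.0595) or WT replicate 2 (0.0514), and the gene that fell, MMP9, lost its call without WT replicate 1, WT replicate 2 or clone 1 replicate 1, which left 0 genes called lower.

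**Figure D4:**
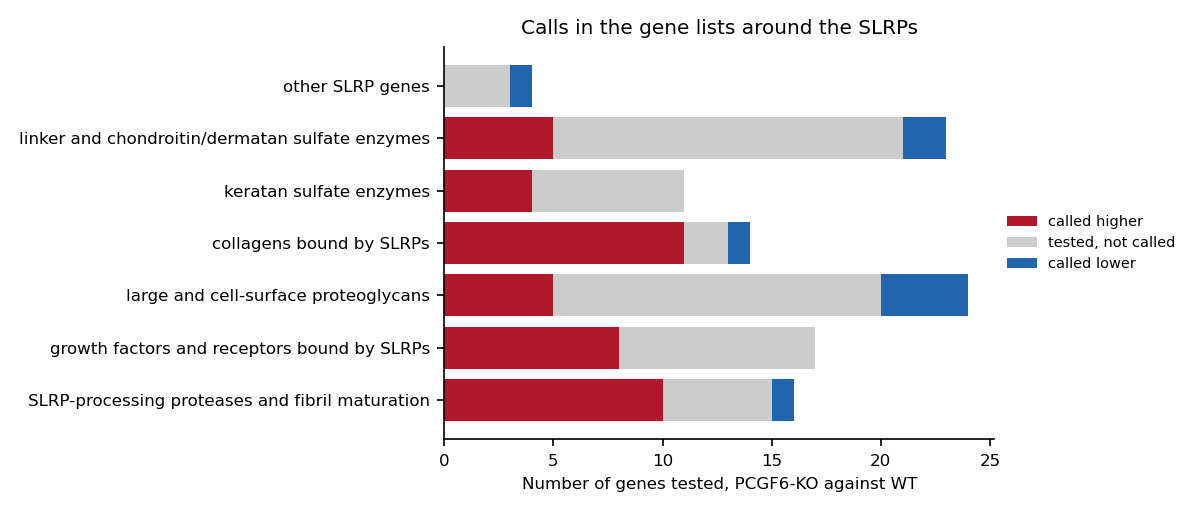
Number of genes tested in each of 7 lists in PCGF6-KO against WT, split into called higher (red), tested without a call (grey) and called lower (blue). The collagens have 11 of 14 genes called higher, against 5 of 23 for the linker and chondroitin or dermatan sulfate enzymes and 5 of 24 for the large and cell-surface proteoglycans.

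Some marker genes of cells that make SLRPs, and of other cell types, differed between the genotypes as well, beside 14.9% of all genes called higher and 8.70% lower. Their part in the result was not tested. Of 8 mesenchyme or fibroblast markers, 6 were called higher and 1, THY1, lower. THY1 dominated their summed level, which was 654 to 668 CPM in WT, 416 to 424 in clone 1 and 477 to 496 in clone 2, so the sum was lower while PRRX1 went from 2 and 5 counts in WT to between 454 and 665, and TWIST1 from 0 in both to between 108 and 255. Of 8 cartilage or bone markers, 5 were tested and 4 called higher. Their sums were 18.3 to 20.8 CPM in WT, 51.9 to 57.1 in clone 1 and 57.9 to 60.8 in clone 2. SOX9 and MATN3 dominated these sums, with means of 32.4 and 18.9 CPM in PCGF6-KO. BGLAP and IBSP, which mark bone-forming cells, had at most 3 counts in any library. Of 8 primitive streak and nascent mesoderm markers, 7 were tested and all 7 called higher. Their sums were 6.47 to 6.51 CPM in WT, 622 to 623 in clone 1 and 748 to 759 in clone 2. TBXT, which marks the primitive streak, had 0 and 12 counts in the WT libraries, 3508 and 3065 in those of clone 1, and 5515 and 4636 in those of clone 2. Of 8 amnion or surface ectoderm markers, 7 were tested and 4 called higher (15.7 to 17.3 CPM in WT, 42.2 to 43.2 in clone 1, 52.3 to 54.4 in clone 2). TFAP2A (mean 0.334 CPM in WT, 15.2 in PCGF6-KO) and IGFBP3 (1.85 and 13.5) made up most of this rise. GABRP stayed level (6.74 and 6.71), and VTCN1 had at most 7 counts in any library. KRT7 had no call in PCGF6-KO against WT but was lower in clone 2 (log2 fold change -1.07, edgeR adjusted p = 0.00261). Of 8 endothelium markers, 7 were tested, 2 called higher and 2 lower (201 to 205, 530 to 553 and 516 to 553 CPM), with EMCN at no more than 2 counts in any library. KDR dominated this sum, with a mean of 149 CPM in WT and 477 in PCGF6-KO. The genes called lower were CDH5 (log2 fold change -1.43) and TIE1 (-2.38). The 8 pluripotency markers summed to 8180 to 8510 CPM in WT, 8080 to 8180 in clone 1 and 7620 to 7870 in clone 2. The markers PRRX1, TWIST1, SP7, TFAP2A, TFAP2B, ISL1, TBXT, EOMES, MSGN1, GSC, FOXF1 and ESAM passed the filter on low counts only through PCGF6-KO libraries. Their calls are conditioned on their being higher there, so no count of marker calls is read against the shares of all genes.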

How the data were processed

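RNA-seq was analysed for 6 libraries. Per the labels and the study's methods, the authors trimmed reads with Trim Galore 0.6.2, aligned them to GRCh38 (HISAT2 2.1.0), assigned them to genes (featureCounts) and deposited raw counts and gene lengths. The annotation release, strand setting and handling of multi-mapped reads are not given in the sources used here, so overlapping genes on opposite strands may share reads. The table had 0 columns of other samples. The 12 ChIP-seq and input samples were not analysed here.

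Genes were filtered with filterByExpr on the 2 genotypes, scaled by TMM and tested with the quasi-likelihood test of edgeR 4.0.16 (limma 3.58.1, R 4.3.3), with Benjamini-Hochberg adjustment over 17672 genes. PCGF6-KO was compared with WT with both clones as 1 group, and each clone with WT, and clone 2 with clone 1, in a second fit of 3 groups. The fit with both clones as 1 group took the 4 PCGF6-KO libraries as separate samples, although they come from only 2 clones. The comparisons against WT share its libraries. Genes were called where the adjusted p was below 0.05 and the log2 fold change exceeded 0.6 in size. The SE given for an edgeR log2 fold change is its absolute value divided by the square root of the F statistic of the test. It is an approximation, most of all for genes near 0 in WT. CPM used TMM-scaled totals, and RPKM also the deposited gene length. Intervals and limits from a count of 0 cover counting error only. The script was tested on simulated data.

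The members, gene lists and tests were chosen with earlier results of these data known. Genes named were the members, PCGF6, genes that overlap or flank a member, up to 4 called genes with the largest change in each list, the marker genes and the 5 genes closest to LUM. TSKU, LRP1, MMP9 and the single markers given with values were chosen after their values were seen. Alternatives were RLE and upper-quartile normalization, 2 other filters, DESeq2 1.42.0, adjusted p alone, the replicate number as a block, each library left out in turn, and for likeness other pseudocounts. Positions came from GENCODE 44, with all 10 members and PCGF6 matched by symbol, and promoter windows from RefSeq (GRCh38.p14).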

Additional observations from a re-analysis of the deposited data

Results flagged for a closer look

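FMOD differed between the PCGF6-KO lines: the log2 fold change of clone 2 against clone 1 was 2.35 by the direct test of the difference (edgeR, adjusted p = 9.82e-09), with 164 and 127 counts in clone 2 and 36 and 26 in clone 1. PRELP, on the same chromosome, differed in the same direction with a log2 fold change of 1.31 (adjusted p = 0.00288). EPYC stood apart in 1 of the 4 PCGF6-KO libraries, with a gap to the nearest library as large as the whole range (ratio 1), which comes from a single count in clone 1 replicate 1. Chance flags about 1 in 20 groups of normally distributed values, a rate that does not hold here, since with 1 count in 1 library and 0 in the rest the ratio is always 1.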

How the results depend on the processing

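No member value changed direction: of 204 values of member fold changes under the alternatives, 183 kept direction and call, 17 lost the call and 4 gained one. RLE and upper-quartile normalization kept every member call, and without a filter OGN was called as well in PCGF6-KO against WT. Requiring at least 10 counts in every library left 2 of the members other than LUM called in PCGF6-KO against WT, 2 in clone 1 and 2 in clone 2 (BGN and FMOD each time), and 1 between the clones (FMOD), because LUM, DCN and PRELP were then not tested. Of the 14850 genes tested with that filter, 3110 were called in PCGF6-KO against WT, 3177 in clone 1, 3844 in clone 2 and 1014 between the clones. DESeq2 called 2 members in clone 1 (BGN and DCN), 1 between the clones (FMOD) and 810 genes between the clones, against 1390 with edgeR. In clone 1 it called 3526 genes, against 4379 with edgeR. The cause was not tested. Adjusted p alone called 6556 genes in PCGF6-KO against WT, 8002 in clone 1, 8904 in clone 2 and 3442 between the clones, and 4 members between the clones, since the size threshold was dropped. Leaving out each library in turn gave 2 to 3 members other than LUM in PCGF6-KO against WT, 1 to 4 in clone 1, 3 to 4 in clone 2 and 2 to 3 members between the clones, and 3041 to 4251, 4068 to 4322, 4794 to 5192 and 1102 to 1419 genes; the lower bound for LUM ranged from 158 to 171. DCN was not tested without either clone 1 library. Since DCN and PRELP passed the main filter only through PCGF6-KO libraries, these counts of members are not read against the shares of all genes.

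The samples share only a replicate number: deviations of same-numbered libraries correlated at 0.05, 0.07 and 0.15 over 14850 genes. With the replicate block, 2 members other than LUM were called in PCGF6-KO against WT (BGN and DCN), with FMOD at an adjusted p of 0.0809 and PRELP at 0.055. That fit called 3876 of 17672 genes.

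Of 182 list counts, 170 stayed within 1.5 times and 12 did not. Of 460 values of the other named genes, 452 kept direction and call, 7 lost the call, among them PCGF6 in PCGF6-KO against WT without WT replicate 1 (adjusted p = 0.0511) or WT replicate 2 (0.0763), and 1 gained one. At this depth OGN, KERA, ASPN, EPYC and OMD had too few counts for the main tests. The OGN call without a filter rests on 3 or 4 counts in each PCGF6-KO library.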
